A study of Mus musculus with 3 samples.

Results

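A set of 10 genes for cytokine receptors other than those of IL-2 was examined in CD4+ T cells, namely *Il7r*, *Il4ra*, *Il6ra*, *Il6st*, *Il21r*, *Il27ra*, *Il12rb1*, *Il12rb2*, *Ifngr1* and *Il10ra*. They were taken by name from a list, and are 10 of the 31053 genes in the feature tables. Each was matched by its symbol and Ensembl identifier, and all 10 had UMIs (unique molecular identifiers, each standing for 1 captured RNA molecule) in all 3 libraries. The study asked which genes change when CD4+ T cells are activated, and what the loss of IFT20, an intraflagellar transport protein, changes in activated cells. T cells enriched for naïve CD4+ cells came from spleens of C57BL/6 mice, male and 5 to 10 weeks old by the study's methods, and 7AAD-CD3+CD4+ cells were sorted for single-cell RNA libraries. The unstimulated WT library (Ift20 f/f, without Cre) was kept in DPBS and is labelled 0 h. The stimulated WT library (Ift20 f/f) and the stimulated IFT20-KO library (Ift20 f/f CD4 cre) received antibodies to CD3 and to CD28, each at 1 μg/mL, over 24 h of culture. All mice carried the floxed *Ift20* allele, the Cre was driven by the *Cd4* promoter, and no unstimulated IFT20-KO library was analysed. No library of cells cultured for 24 h without antibodies was analysed either. Differences with stimulation below thus hold both the antibodies and the time in culture, which cannot be told apart. There was 1 library per group and the number of mice behind each is not stated, so no test was possible. Intervals in parentheses are exact 95% intervals that cover counting error only.

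These genes encode chains of class I and class II cytokine receptors, which have no enzyme of their own. When a cytokine joins its chains, Janus kinases bound to their tails phosphorylate STAT transcription factors, and SOCS proteins dampen the signal. IL-7 receptor α (*Il7r*) keeps naïve T cells alive, and IL-4 receptor α (*Il4ra*) and IL-21 receptor (*Il21r*) share the common γ chain with it. The receptors for IL-6 (*Il6ra*) and IL-27 (*Il27ra*) signal through gp130 (*Il6st*). IL-12 receptor β1 and β2 (*Il12rb1*, *Il12rb2*) together bind IL-12 and favour Th1 cells, whose main cytokine is bound by interferon-γ receptor 1 (*Ifngr1*). IL-10 receptor α (*Il10ra*) carries an inhibitory signal.

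After filtering, 8031 cells of the unstimulated WT library remained with 37133949 UMIs (median 4627 per cell), 9903 of the stimulated WT library with 116979076 (median 12167), and 13920 of the IFT20-KO library with 106435143 (median 5014.5). The libraries shared between 114 and 197 cell barcodes in pairs. *Ift20* was at 64.4, 76.0 and 6.60 CPM (UMIs per 1000000 UMIs of the library), in the same order of the libraries. All 5 CD4 T cell markers were present in each library, and their summed level lay between 2786 and 3458 CPM. Of the B cell markers, *Ighm* made up 143 to 283 of the 144 to 286 CPM summed over the list. Of the other lists, CD8 T cell markers summed to 9.16 to 28.7 CPM, myeloid markers to 79.2 to 84.0 CPM (mostly *Cst3*), and erythroid and platelet markers to at most 0.188 CPM. The NK cell markers, with *Klrd1* highest, summed to 65.2 CPM without stimulation and to 1.96 and 2.09 CPM with it. Naïve T cell markers summed to 2907, 898 and 1039 CPM and activation markers to 146, 803 and 761 CPM. The part of other cell types in the results was not tested, but leaving out the 257, 282 and 319 cells with 2 or more markers of another cell type changed neither the number of receptors past 2-fold nor the direction of any.

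Promoter sequences are shown for the receptor that was lowest relative to the unstimulated level after stimulation, *Il7r*, the next lowest, *Il6ra*, and *Il12rb2*, 1 of the only 2 that were higher. RefSeq windows of 300 bases on GRCm38.p6, from 250 bases before to 50 bases after the start, were found for 7 of the 10 genes, and none for *Il27ra*, *Il12rb1* or *Il10ra*. Capitals mark matches on either strand to GGAAGT (Ets), TGTGGT (Runx), GTAAACA (forkhead), TGANTCA (AP-1) or TTCNNNGAA (STAT), and each sequence reads 5′ to 3′ along the gene.
Il7r, chr15:9529827-9530126, minus strand: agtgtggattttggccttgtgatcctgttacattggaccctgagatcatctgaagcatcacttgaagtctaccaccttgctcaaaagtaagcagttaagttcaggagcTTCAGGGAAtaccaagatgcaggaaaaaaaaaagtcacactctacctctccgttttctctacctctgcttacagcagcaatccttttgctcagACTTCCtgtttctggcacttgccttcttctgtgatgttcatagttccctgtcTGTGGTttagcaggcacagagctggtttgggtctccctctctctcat
Il6ra, chr3:89913147-89913446, minus strand: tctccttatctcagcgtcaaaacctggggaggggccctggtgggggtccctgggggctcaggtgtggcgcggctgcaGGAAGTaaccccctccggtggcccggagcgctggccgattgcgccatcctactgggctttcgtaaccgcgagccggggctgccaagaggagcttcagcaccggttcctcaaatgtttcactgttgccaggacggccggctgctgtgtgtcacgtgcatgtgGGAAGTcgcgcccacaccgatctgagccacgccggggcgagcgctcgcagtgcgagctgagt
Il12rb2, chr6:67376139-67376438, minus strand: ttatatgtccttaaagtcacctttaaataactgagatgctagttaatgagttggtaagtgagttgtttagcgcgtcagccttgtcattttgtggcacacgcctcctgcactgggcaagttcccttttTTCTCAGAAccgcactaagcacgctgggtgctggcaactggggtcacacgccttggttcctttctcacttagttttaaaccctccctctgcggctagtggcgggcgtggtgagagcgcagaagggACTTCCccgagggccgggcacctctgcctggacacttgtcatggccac
The *Il7r* window held 3 matches, to the STAT, Ets and Runx letters, and the Runx match began at base 4 of the RefSeq transcript. The RefSeq start of *Il7r* lies downstream of the start of its GENCODE model, so that the whole window falls inside that gene model, while both starts coincide for *Il6ra* and *Il12rb2*. The *Il6ra* window held 2 Ets matches. The *Il12rb2* window held 1 STAT and 1 Ets match. Of the 7 windows, 3 held an Ets, 2 a Runx, 1 a forkhead, 2 a STAT and 0 an AP-1 match, where 23.8%, 16.8%, 3.65%, 8.30% and 7.81% of all 32851 windows of this length did. In *Il21r*, the forkhead and Runx matches overlapped. A match describes letters only and is not a binding site.

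With stimulation, *Il7r* stood out among the 10 receptors. It was at 476 CPM (469 to 483) in unstimulated WT, 5.45 CPM (5.04 to 5.89) in stimulated WT and 5.94 CPM (5.48 to 6.42) in stimulated IFT20-KO cells. Both stimulated libraries were thus far below the unstimulated one, and the log2 ratio of stimulated over unstimulated WT was −6.45 (−6.56 to −6.33), an 87.3-fold lower level. Among 13297 genes whose UMIs summed over both libraries came to 10 or more, 17 had a lower ratio. The gene, ENSMUSG00000003882, spans chr15:9505788-9530176 on the minus strand of GRCm38 and overlaps no other annotated gene.

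**Figure D1:**
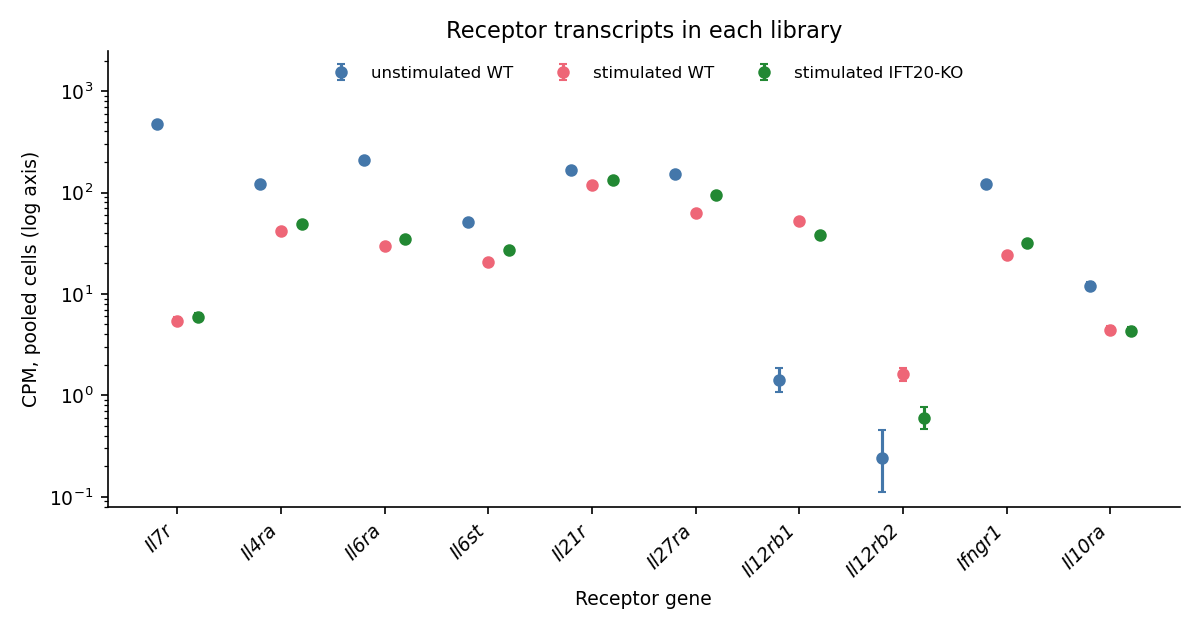
CPM of each receptor in the 3 libraries on a log axis. Points are all kept cells of a library pooled, and bars are exact 95% Poisson intervals, which are often smaller than the point. *Il7r* lies at 476 CPM without and at 5.45 and 5.94 CPM with stimulation, and *Il12rb1* at 1.43 CPM without and at 52.6 and 37.7 CPM with it.

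Among the receptors that share the common γ chain with *Il7r*, the differences were smaller. *Il4ra* was at 120.0 CPM (116 to 124) in unstimulated WT, 41.9 CPM (40.7 to 43.1) in stimulated WT and 49.3 CPM (48.0 to 50.7) in IFT20-KO cells, a log2 ratio with stimulation of −1.52 (−1.58 to −1.46). *Il21r*, whose ligand is made by helper T cells, was at 165, 119 and 133 CPM. Its log2 ratio, −0.48 (−0.52 to −0.43), was the smallest in size of the 10. *Il21r* (chr7:125603429-125633570) and *Il4ra* (chr7:125552120-125579474) are neighbours on the plus strand of chromosome 7.

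The gp130 group had lower CPM in the stimulated library as well. *Il6ra* was at 210.5 CPM (206 to 215) in unstimulated WT, 29.9 CPM in stimulated WT and 35 CPM in IFT20-KO cells, with a log2 ratio of −2.81 (−2.87 to −2.76). *Il27ra* was at 153, 63.1 and 95.3 CPM (log2 ratio −1.27) and the shared chain *Il6st* at 51.0, 20.7 and 26.9 CPM (−1.30). The IFT20-KO library lay between the other libraries in these 3, and in every other receptor except *Il10ra*. Of the 13504 genes compared between the stimulated libraries, 68.3% had a higher CPM in IFT20-KO. The order of the stimulated libraries depended on depth for several receptors, as given below.

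*Ifngr1* was at 122 CPM in unstimulated WT, 24.0 CPM in stimulated WT and 31.8 CPM in IFT20-KO cells, a log2 ratio with stimulation of −2.34 (−2.41 to −2.28). *Il10ra* was at 11.9, 4.42 and 4.33 CPM, from 443, 517 and 461 UMIs, with a log2 ratio of −1.43 (−1.62 to −1.25). For both, the intervals of the stimulated libraries lay wholly below that of the unstimulated one.

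The IL-12 receptor chains were the only members with a higher CPM after stimulation. *Il12rb1*, which is also a chain of the IL-23 receptor, was at 1.43 CPM (1.07 to 1.87; 53 UMIs) in unstimulated WT, 52.6 CPM (51.3 to 54.0) in stimulated WT and 37.7 CPM (36.5 to 38.9) in IFT20-KO cells. The log2 ratio with stimulation was 5.20 (4.82 to 5.62), and 86 of the 13297 genes had a higher one. *Il12rb2*, the chain that sets which cells respond to IL-12, had 9, 188 and 64 UMIs, or 0.242, 1.61 and 0.601 CPM, a log2 ratio of 2.73 (1.77 to 3.88). It overlaps *Serbp1*, a gene on the opposite strand at 456 to 1080 CPM, and the strand setting of the counting is not given in the sources used here. Of the other members, *Il27ra*, *Il4ra* and *Il6ra* overlap genes on the opposite strand that had at most 4.87 CPM, and *Il10ra* overlaps genes that are not in the feature tables.

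In all, 7 of the 10 receptors were lower by at least 2-fold in the stimulated library, where 23.0% of the 13297 genes were, and 2 were higher by as much, where 19.3% of the genes were. The median log2 ratio of the 10 was −1.37 and that of all genes −0.09. A level in CPM is relative to all RNA of a library, and the stimulated cells held more UMIs each, so the same comparison was made in UMIs per cell without scaling. On that scale the median of all genes was 1.24, which carries any difference in sequencing depth between the libraries. *Il7r* went from 2.20 UMIs per cell to 0.0644 (log2 ratio −5.09), *Il6ra* from 0.973 to 0.354 (−1.46) and *Ifngr1* from 0.563 to 0.283 (−0.99). These 3 were thus lower on both scales. *Il4ra*, *Il6st*, *Il27ra* and *Il10ra* differed little, between −0.17 and 0.08 on the log2 scale, and *Il21r* turned to 0.88. *Il12rb1* was higher on both scales, at 6.56 without scaling.

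**Figure D2:**
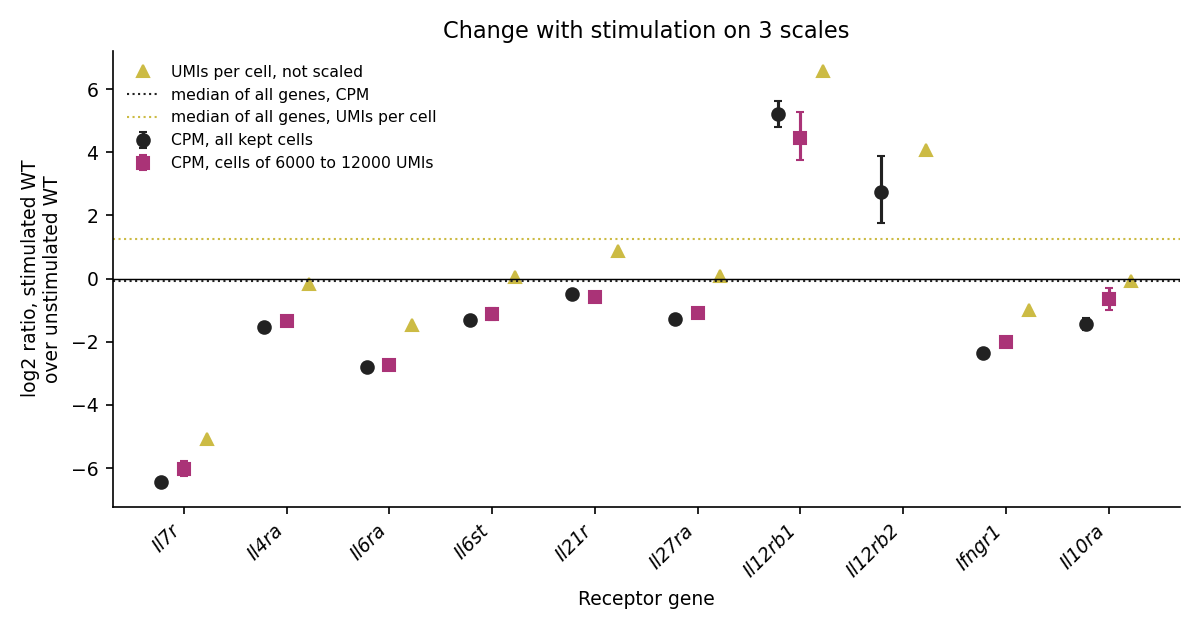
Log2 ratio of stimulated over unstimulated WT for each receptor, as CPM of all kept cells, as CPM of cells with 6000 to 12000 UMIs, and as UMIs per cell without scaling. Bars are exact 95% intervals, dotted lines are the medians of all genes on 2 of the scales, and *Il12rb2* has no value among cells of 6000 to 12000 UMIs because the unstimulated ones held 0 UMIs of it. *Il7r*, *Il6ra* and *Ifngr1* lie below 0 and *Il12rb1* above 0 on all 3 scales.

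Detection per cell was compared at an equal depth, by drawing 3000 UMIs at random from every cell that had as many. This left out 1335 cells of the unstimulated WT, 2147 of the stimulated WT and 5517 of the IFT20-KO library. *Il7r* was found in 60.4% (59.2% to 61.6%) of unstimulated WT cells, 1.53% (1.27% to 1.83%) of stimulated WT cells and 1.62% (1.36% to 1.91%) of IFT20-KO cells, against 68.0%, 4.75% and 3.68% at full depth. *Il12rb1* was found in 0.463%, 12.7% and 9.91% of the thinned cells, and in 0.598%, 37.1% and 20.7% at full depth. The intervals of the stimulated libraries overlapped for *Il7r*, and did not for *Il12rb1*. *Il6ra* was found in 44.2%, 8.02% and 9.34% of thinned cells, *Ifngr1* in 27.8%, 6.90% and 8.69%, and *Il21r* in 36.9%, 26.8% and 30.1%. No cell type that should lack the receptors was at hand to measure free RNA. The 74 unstimulated cells with 2 or more B cell markers had *Il7r* in 67.6% at a median of 5754.5 UMIs, against 68.0% of the other cells at 4617 UMIs. *Il12rb1* was found in 0 of these 74 cells, but in only 0.603% of the other unstimulated cells, so the 0 says little. In stimulated WT it was found in 31 of 72 such cells (43.1%), against 37.1% of the others. In IFT20-KO it was found in 24 of 103 (23.3%), against 20.7%. In both stimulated libraries the cells with B cell markers had more UMIs, so these shares are not at equal depth.

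Receptors signal as assembled chains, so both chains of a receptor were counted in the same thinned cells. *Il6ra* with *Il6st* was found in 5.85% (5.30% to 6.44%) of unstimulated WT cells, 0.554% (0.402% to 0.746%) of stimulated WT cells and 1.2% (0.980% to 1.46%) of IFT20-KO cells. *Il27ra* with *Il6st* was found in 4.41%, 0.980% and 2.21%. At full depth *Il27ra* with *Il6st* was found in 10.2%, 10.1% and 9.07% of cells, so in WT a lower share after stimulation was seen only in thinned cells. *Il6ra* with *Il6st* was found in 11.8%, 6.35% and 4.43% at full depth. The full-depth shares carry the difference in depth between the libraries. *Il7r* with the common γ chain *Il2rg* went from 54.5% to 1.26% and 1.42%, while cells with *Il2rg* and no *Il7r* made up 35.5%, 83.5% and 83.4%. The common chain was thus found where the IL-7 chain was not. *Il12rb1* with *Il12rb2* was found in 1, 4 and 1 thinned cells, and at full depth in 64 of 9903 stimulated WT and 14 of 13920 IFT20-KO cells, so that pairs were near the limit of detection. Thinned unstimulated WT cells held a median of 2 of the 10 receptors, and those of both stimulated libraries a median of 1. No receptor was found in 4.55% of unstimulated WT, 39.0% of stimulated WT and 36.9% of IFT20-KO cells.

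Cells of each library were also divided by their own UMIs, into 5 classes from 1400 UMIs upwards. The 421 stimulated WT cells and 801 unstimulated cells with fewer fall in no class. In unstimulated cells *Il7r* varied little with depth, at 470.2, 476, 441 and 463 CPM in cells of 1400 to 3000, 3000 to 6000, 6000 to 12000 and 12000 to 24000 UMIs. In stimulated WT cells, *Il7r* was at 37.8, 26.6, 6.79 and 3.31 CPM in the same classes. The cells with the fewest UMIs thus held the highest share of *Il7r*, and the same held for all 10 receptors in that library. *Il27ra* was at 488 CPM (465 to 512) in stimulated WT cells of 1400 to 3000 UMIs, above the 183 CPM (161 to 208) of unstimulated cells of that class, and at 61.4 CPM in those of 6000 to 12000 UMIs, below 132 CPM. The direction of *Il27ra*, *Il4ra*, *Il6st* and *Il21r* with stimulation therefore differed between these classes. In the 1726 stimulated WT cells of 1400 to 3000 UMIs, the median share of mitochondrial UMIs was 10.6%, against 1.42% in those of 6000 to 12000 UMIs. The part of RNA quality in this was not tested. *Il7r*, *Il6ra* and *Ifngr1* were lower and *Il12rb1* was higher after stimulation in each of the 4 classes with at least 50 cells in both libraries, although *Il12rb1* had only 1 to 32 UMIs per class in unstimulated cells.

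**Figure D3:**
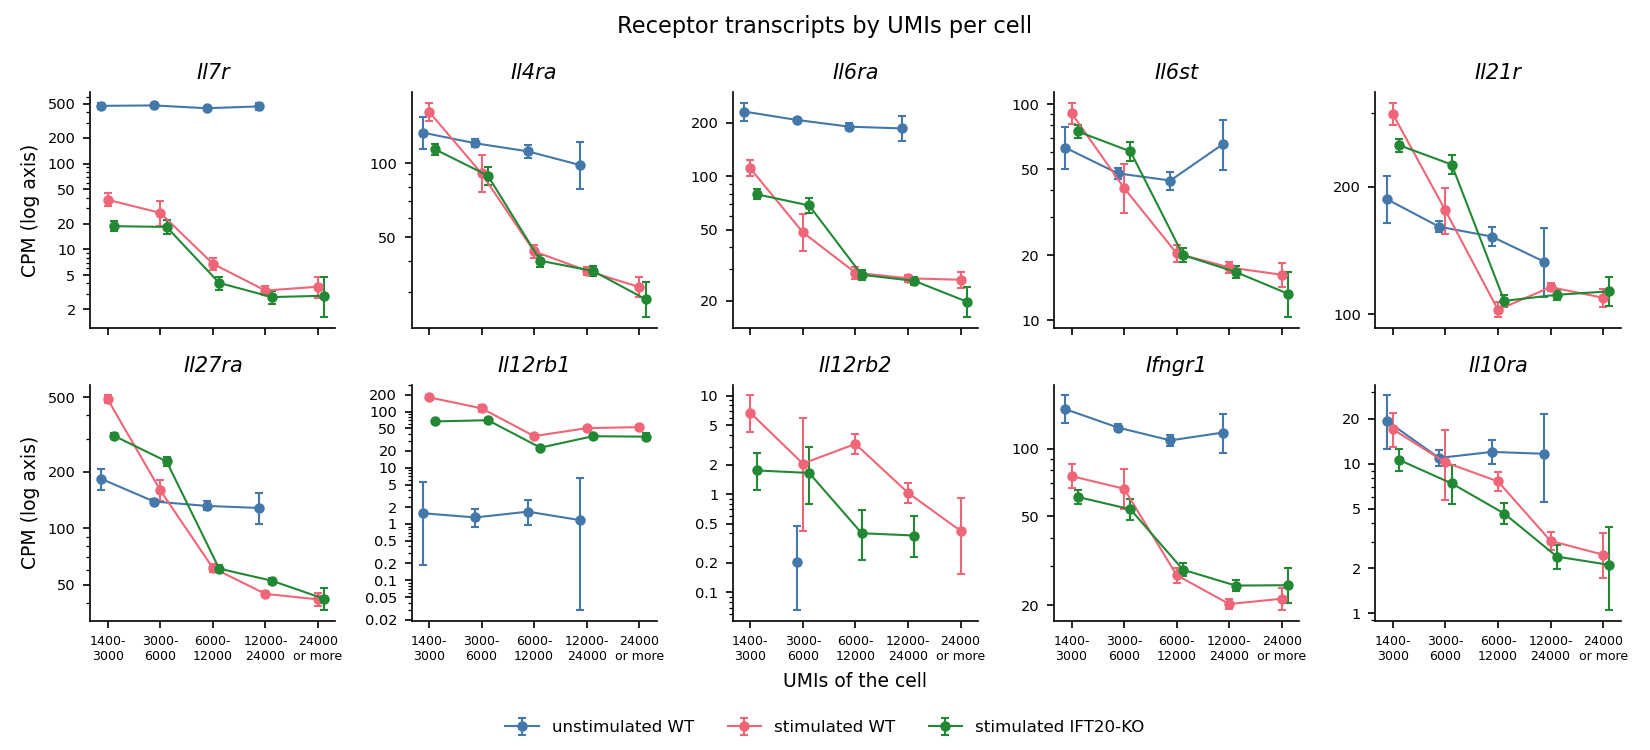
CPM of each receptor on a log axis against the UMIs of the cell, in 5 classes, with a panel for each gene. Points are classes with at least 50 cells and at least 1 UMI of the gene, and bars are exact 95% Poisson intervals. In stimulated WT cells *Il7r* goes from 37.8 CPM in the lowest class to 3.31 CPM in cells of 12000 to 24000 UMIs, while in unstimulated cells it stays between 441 and 476 CPM.

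Between the stimulated libraries, the pooled differences were small. *Il12rb2* was the 1 receptor lower in IFT20-KO by at least 2-fold, with a log2 ratio of −1.42 (−1.85 to −1.0), where 1.67% of the 13504 genes with at least 10 UMIs were. None was higher by as much, where 3.92% of the genes were. At a threshold of 1.2-fold, *Il12rb1* at −0.48 (−0.54 to −0.42) and *Il12rb2* were lower, 2 of 10 where 7.75% of the genes were. *Il27ra* at 0.60 (0.55 to 0.64), *Ifngr1* at 0.40 (0.33 to 0.48) and *Il6st* at 0.38 (0.30 to 0.46) were higher, 3 of 10 where 35.9% of the genes were. The higher count was therefore close to the share over all genes. As UMIs per cell without scaling these 3 turned to −0.03, −0.22 and −0.25, all above the median of all genes on that scale, −0.49. The median log2 ratio of the 10 was 0.19, beside 0.14 for all genes.

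Within classes of UMIs per cell, several pooled values turned, while those of *Il12rb1* and *Il12rb2* kept their direction. In cells thinned to 1400 UMIs, *Il10ra* alone turned, from −0.03 to 0.02. Cells of 1400 to 3000 UMIs, in which every receptor was higher than in cells of 6000 or more, made up 39.6% of the IFT20-KO cells and 17.4% of the stimulated WT cells. The deposited barcodes began at 1493 UMIs in the IFT20-KO and at 709 UMIs in the stimulated WT library, and the mitochondrial share of this class was 5.74% and 10.6%. *Il7r* was 1.09-fold higher in the pooled IFT20-KO library, with a log2 ratio of 0.12 (−0.04 to 0.28), yet lower in each of the 5 classes. In cells of 1400 to 3000 UMIs it was at 18.6 CPM in IFT20-KO and 37.8 CPM in stimulated WT, and in cells of 6000 to 12000 UMIs at 4.06 and 6.79 CPM. The interval excluded 0 in these 2 classes. *Il4ra* and *Il10ra* were likewise lower in all 5 classes, with the interval below 0 in 2 and 3 of them, although *Il4ra* was −0.00 in cells of 12000 to 24000 UMIs.

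*Il12rb1* was lower in IFT20-KO in all 5 classes, with the interval below 0 in each. Its level in cells of 1400 to 3000 UMIs was 66.7 CPM (62.2 to 71.3) in IFT20-KO and 179 CPM (165 to 194) in stimulated WT cells, and in cells of 12000 to 24000 UMIs 36.4 CPM (34.7 to 38.1) and 50.6 CPM (49.0 to 52.2). The intervals of the libraries did not overlap in either class. *Il12rb2* was lower in all 5 as well, at 13 UMIs in IFT20-KO against 74 in stimulated WT among cells of 6000 to 12000 UMIs, and at 0 against 6 in cells of at least 24000. Its interval was below 0 in 3 classes.

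With the 5 classes weighted as in the stimulated WT library, by share of UMIs, a choice made after the data were seen, *Il12rb2* was at −2.0, *Il12rb1* at −0.59, *Il7r* at −0.53 and *Il10ra* at −0.49. These 4 were lower by at least 1.2-fold, where 11.2% of all genes were on this scale, and 0 were higher, where 16.1% were. *Il27ra* came to 0.02, *Ifngr1* to 0.16, and *Il6ra*, *Il4ra*, *Il6st* and *Il21r* to between −0.11 and −0.03. The median of all genes was 0.03. The weighted ratios of *Ifngr1* and *Il27ra* were above 0, but each was lower in 2 of the 5 classes. In cells of 1400 to 3000 UMIs *Il27ra* was at −0.65 (−0.73 to −0.56) and *Ifngr1* at −0.31 (−0.51 to −0.10), and in cells of 12000 to 24000 UMIs they were at 0.23 (0.16 to 0.31) and 0.27 (0.16 to 0.38).

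**Figure D4:**
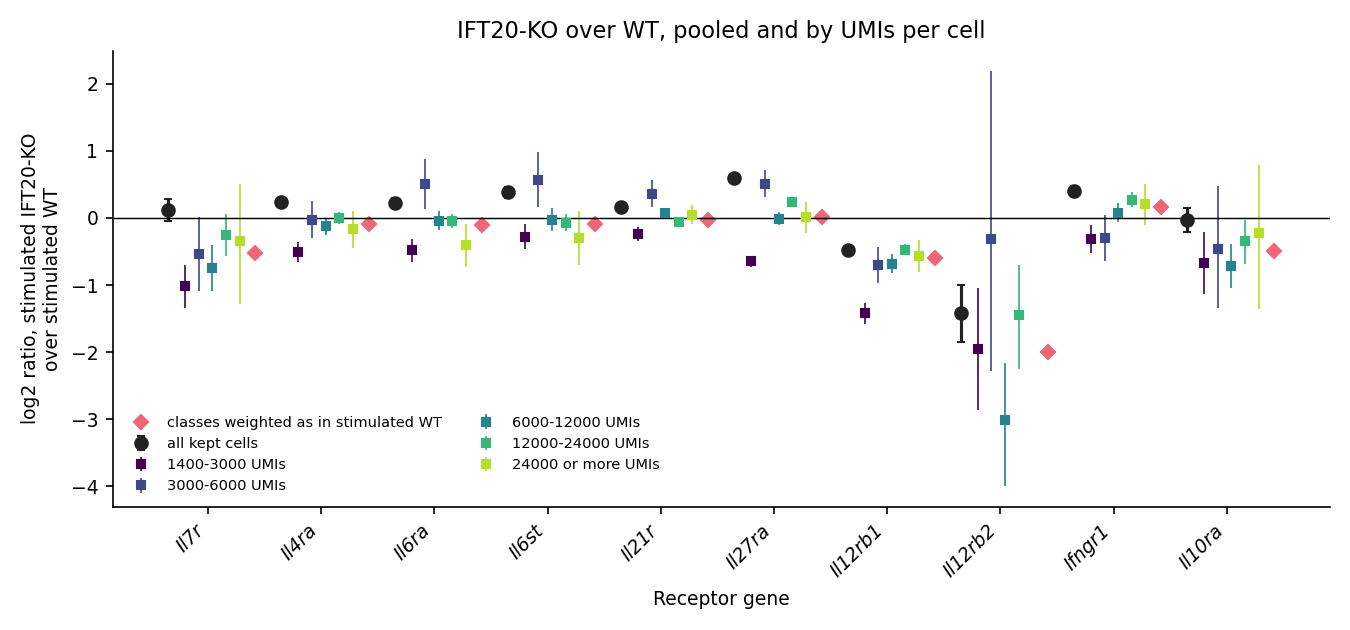
Log2 ratio of stimulated IFT20-KO over stimulated WT for each receptor, over all kept cells, in 5 classes of UMIs per cell, and with the classes weighted as in the stimulated WT library. Bars are exact 95% intervals, and *Il12rb2* has no point in the class of 24000 or more UMIs because the IFT20-KO cells held 0 UMIs of it. *Il7r* lies at 0.12 over all cells and below 0 in every class, and *Il12rb1* lies below 0 throughout.

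To see which stimulated cells held the receptors, cells with and without a UMI of another gene were compared among cells of 12000 to 24000 UMIs, so that depth differed little. In stimulated WT cells, *Il7r* was at 5.14 CPM in the 1749 cells with *Klf2*, a quiescence factor, and 2.18 CPM in the 2840 without, a log2 ratio of 1.24 (0.86 to 1.62). *Il10ra* was at 5.07 and 1.82 CPM in them (1.48, 1.08 to 1.89), and *Il12rb2* at 1.66 and 0.648 CPM (1.35, 0.66 to 2.06). These 3 receptors were thus higher in stimulated WT cells with *Klf2*. *Il12rb1* went the other way, at 41.4 and 56.2 CPM (−0.44, −0.54 to −0.34). IFT20-KO cells also had higher *Il7r* and *Il10ra* with *Klf2*, by 1.58 and 1.84, and lower *Il12rb1*, by −0.31. For *Il12rb2* the IFT20-KO value, −0.50 (−2.18 to 0.99), rests on 6 UMIs in cells with *Klf2* and its interval includes 0. In cells thinned to 3000 UMIs it was 2.09 (0.63 to 3.56), from 10 UMIs in cells with *Klf2*, so that its direction was not settled. *Il7r* and *Il10ra* were also higher in cells with *Mki67*, a gene of cycling cells, by 1.29 (0.69 to 1.85) and 0.99 (0.30 to 1.61) in stimulated WT. The IFT20-KO values with *Mki67* were 1.5 and 1.14. In thinned cells the interval of *Il10ra* with *Mki67* included 0, at 0.70 (−1.60 to 2.28) in stimulated WT and 0.598 (−0.755 to 1.697) in IFT20-KO. *Il7r*, *Ifngr1*, *Il27ra*, *Il12rb1*, *Il4ra* and *Il21r* were higher with *Mki67* in both thinned libraries, with intervals above 0. *Ifngr1* was at 1.499 (0.858 to 2.077) in stimulated WT and 1.151 in IFT20-KO. The intervals of *Il6ra* and *Il6st* were above 0 in IFT20-KO only, and *Il12rb2* had at most 3 UMIs with *Mki67*. In thinned cells, a higher level with *Mki67* was thus not particular to *Il7r*. Over all depths without thinning, *Il7r* alone had an interval above 0 in stimulated WT, at 0.79 (0.39 to 1.17). There *Il27ra* was at −0.06 (−0.21 to 0.08), *Il12rb1* at −0.09 and *Il6st* at −0.54 (−0.85 to −0.25). In IFT20-KO the intervals of *Il7r*, *Ifngr1* and *Il10ra* were above 0 without thinning. The result for the other receptors therefore depended on how depth was handled.

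Cells with *Il2*, a cytokine gene of activated cells, had lower *Il7r* and *Il10ra* and higher *Il12rb1*. In stimulated WT, *Il7r* was at 1.43 CPM in the 980 cells with *Il2* and 3.86 CPM in the 3609 without (−1.43, −2.11 to −0.82), and *Il10ra* at 1.78 and 3.42 CPM (−0.94, −1.55 to −0.38). *Il12rb1* was at 68.6 and 45.3 CPM (0.60, 0.50 to 0.70). The IFT20-KO values were −1.24 for *Il7r*, −1.23 for *Il10ra* and 0.80 for *Il12rb1*, in the same directions. In cells thinned to 3000 UMIs *Il7r* was at −1.26 (−2.73 to −0.10) in stimulated WT and at −0.57 (−1.66 to 0.35) in IFT20-KO cells, where the interval includes 0. *Il12rb2* was higher in the 544 stimulated WT cells with *Tbx21*, the Th1 factor T-bet, at 2.5 against 0.825 CPM (1.60, 0.83 to 2.33). Over all depths, 8.99% of stimulated WT and 0.941% of IFT20-KO cells had a UMI of *Tbx21*, and *Il12rb2* was at 3.72 and 3.38 CPM in these cells and at 1.32 and 0.562 CPM in the rest, with 5 UMIs behind the second value. These shares carry the difference in depth between the libraries. Among cells thinned to 3000 UMIs, *Tbx21* was found in 239 stimulated WT cells and not in 7517. In IFT20-KO it was found in 28 and not in 8375. The number of cells with *Tbx21* thus moved with the level of *Il12rb2* between the libraries, and its part in that level was not tested.

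**Figure D5:**
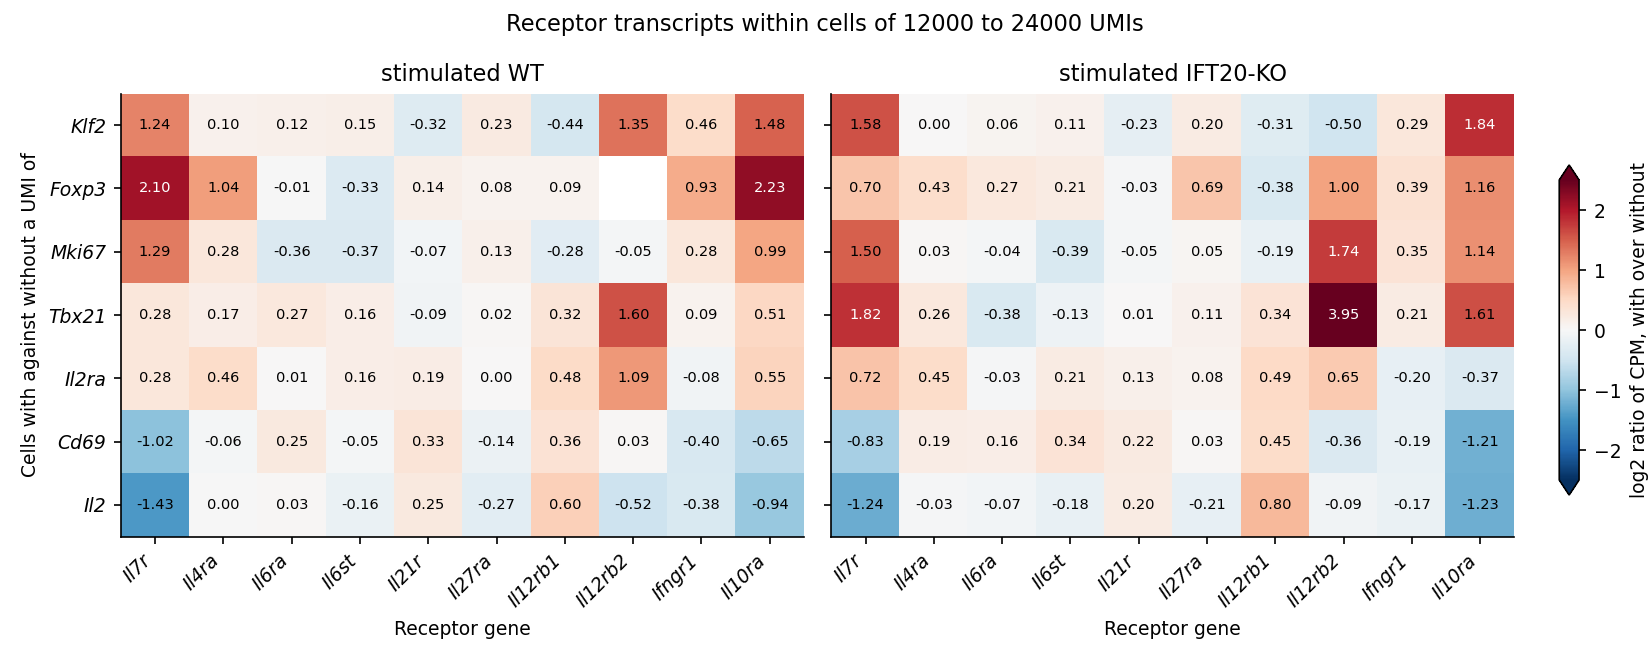
Log2 ratio of CPM in cells with over cells without a UMI of the gene named on the left, for each receptor, among cells of 12000 to 24000 UMIs of the stimulated WT (left) and IFT20-KO (right) library. A blank square marks a class with 0 UMIs of the receptor. *Il7r* and *Il10ra* are high in cells with *Klf2* (1.24 and 1.48 in WT) and low in cells with *Il2* (−1.43 and −0.94), and *Il12rb1* is high in cells with *Il2* (0.60).

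Receptor levels also differed between cells with and without *Foxp3*, the regulatory T cell factor. Among unstimulated cells of 3000 to 6000 UMIs, *Il10ra* was at 38.9 CPM in the 204 cells with *Foxp3* and 9.87 CPM in the 5125 without (1.98, 1.42 to 2.49). *Ifngr1* was at 187 and 122 CPM (0.62, 0.38 to 0.84), and *Il7r* at 311 and 482 CPM (−0.63, −0.81 to −0.46). *Il10ra* and *Ifngr1* were thus higher and *Il7r* lower in these cells. The 154 unstimulated cells of this class with *Il2ra* had the same directions, by 1.73 for *Il10ra*, 0.52 for *Ifngr1* and −0.84 for *Il7r*, and the 19 cells with *S100a4*, a gene of antigen-experienced T cells, had 2.18 for *Il10ra*, from 4 UMIs, and 1.05 for *Ifngr1*. *Il12rb1*, low in unstimulated cells, was also higher with these genes over all depths. It was at 2.64 (1.57 to 3.59) with *Foxp3*, from 12 UMIs, and at 4.84 (3.33 to 6.07) with *S100a4*, from 6 UMIs. Among stimulated WT cells of 12000 to 24000 UMIs, *Il7r* was at 13.3 CPM in 91 cells with *Foxp3* and 3.1 CPM in 4498 without (2.10, 1.36 to 2.76), from 20 UMIs in the cells with *Foxp3*. Over all depths its ratio was 1.27 (0.67 to 1.80), and in cells thinned to 3000 UMIs the 66 with *Foxp3* held 0 UMIs of *Il7r* against 134 in the rest, which allows a log2 ratio of up to 1.7. The direction of *Il7r* in stimulated cells with *Foxp3* was therefore not settled at equal depth. *Il10ra* was higher in stimulated WT cells with *Foxp3*, at 13.3 and 2.84 CPM (2.23, 1.49 to 2.89), and in thinned cells by 2.39 (0.74 to 3.66). In IFT20-KO cells the *Il7r* ratio was 0.70, with an interval from −0.77 to 1.86. Their *Il10ra* ratio was 1.19 (0.59 to 1.75) over all depths. In thinned IFT20-KO cells it was 1.23 (−1.07 to 2.82), from 3 UMIs, so that its interval included 0.

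The few stimulated cells that still held *Il7r* were 470 in the WT and 512 in the IFT20-KO library. The 98 WT cells with 2 or more UMIs, 0.990% of the cells, held 41.7% of the *Il7r* UMIs of the library, and the 86 such IFT20-KO cells, 0.618%, held 32.6%. In those 98 cells *Klf2* was at 308 CPM, against 105 CPM in cells without *Il7r*. Activation genes differed in either direction in the 98 cells, with *Il2ra* at 280.3 against 180.2 CPM, *Cd69* at 277 against 303 CPM, *Tnfrsf9* at 158 against 196 CPM and *Il2* at 702 against 116 CPM. The 372 WT cells with 1 UMI of *Il7r* had *Il2* at 91.2 CPM, and the 86 IFT20-KO cells had it at 55.1 CPM against 69.2 CPM. *Cd69* also went the other way in the 86 IFT20-KO cells, at 351 against 270 CPM. Their *Il2ra* (335 against 199 CPM) and *Tnfrsf9* (192 against 222 CPM) differed in the same directions as in WT. Over all depths, the 1631 stimulated WT cells with *Il2* held 56 *Il7r* UMIs and those without held 582. As the 98 cells had 2 or more *Il7r* UMIs each, most of them therefore had no *Il2*. Their high *Il2* level came from a minority of them.

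Other genes of the pathway are given from lists, with log2 ratios of CPM in parentheses. The counts stand beside 19.3% of all genes higher and 23.0% lower by 2-fold. With stimulation, 1 of the 6 partner chains with at least 10 UMIs was higher by 2-fold, *Il2ra* (the IL-2 receptor α chain, 3.62), and 2 were lower, *Ifngr2* and *Il10rb*, the partners of *Ifngr1* and *Il10ra*, by −1.30 and −2.06. The 4 Janus kinases had 0 past 2-fold, with a median of −0.32. Of 7 STATs, *Stat2* and *Stat5b* (−1.26) were lower by 2-fold and 0 were higher. Of 10 inhibitors, *Socs2* and *Cish* (1.89), both known targets of STAT5, were higher by 2-fold and *Socs3* (−3.22) was lower. Of the 14 further cytokine receptors with at least 10 UMIs, 11 were lower by 2-fold, among them *Ifnar1* (−1.41), *Ifnar2* (−1.09), *Il17ra* (−2.44) and *Tgfbr2* (−2.98), and 2 were higher, *Il1r2* and *Il15ra*. The median of the 14 was −1.78, and *Il10rb* stands both here and among the partner chains. Another of the 11 was *Il18r1*, at 28.7 CPM in unstimulated and 0.470 CPM in stimulated WT, from 1065 and 55 UMIs. Its log2 ratio, −5.93 (−6.35 to −5.54), came near the −6.45 of *Il7r*. Of 13 ligands only 3 had at least 10 UMIs, and *Il4* and *Ifng* were higher, at 145 against 3 and 347 against 8 UMIs.

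Between IFT20-KO and stimulated WT, no partner chain, kinase, STAT or inhibitor of these lists was past 2-fold, where 3.92% of all genes were higher and 1.67% lower. The list medians were 0.15, 0.17, 0.04 and −0.02, in that order. Of 13 further receptors 1 was higher by 2-fold, *Tgfbr1* (1.02). Of the 5 ligands with at least 10 UMIs, *Ifng* had 31 UMIs in IFT20-KO against 347 in stimulated WT cells (−3.35, −3.93 to −2.82), *Il4* 14 against 145 and *Il10* 2 against 9, and *Il13* had 8 against 2. The intervals of *Il10* and *Il13* include 0.

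The genes whose pattern over the 3 libraries was nearest to a receptor were sought by the Euclidean distance of centred log2 CPM, among 3434 genes with at least 50 CPM in any library. For *Il7r* they were *Sgk1* (distance 0.303), *Gm45552* (0.379) and *Irf7* (0.823), and for *Il12rb1* *Slc16a3* (0.225), *Rgs1* (0.337) and *Prelid2* (0.348). *Sgk1*, a kinase gene, was at 97.4, 1.46 and 1.25 CPM, and *Slc16a3*, a lactate transporter gene, at 2.21, 72.6 and 46.8 CPM. A likeness over 3 libraries describes these libraries and no more.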

How the data were processed

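Single-cell RNA libraries were used, 1 each of WT cells without stimulation, WT cells after it and IFT20-KO cells after it. The authors deposited raw counts of UMIs per gene and barcode, made with Cell Ranger (3.1.0 in the file headers; the methods name another version) on mm10. The kit is 3′ by the methods and 5′ by the labels, so which transcript end was read is unknown. Levels were therefore not compared between receptors, while those of cell type markers were summed over each list. From these counts, barcodes needed over 200 genes and a mitochondrial share below 15% to be kept (222, 417 and 12 were left out), and UMIs were summed per library. Doublets were not called. Deposited barcodes began at 500, 709 and 1493 UMIs.

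CPM carry exact Poisson, shares exact Clopper-Pearson and ratios exact binomial intervals, at 95%, for counting error only. No test was made. Genes entered a comparison with at least 10 UMIs over both libraries. Some marker genes are not reported here. The calculation was tested on simulated data. All 10 receptors are named, and of the pathway lists those past 2-fold with at least 50 CPM in either library, plus the 3 genes nearest to *Il7r* and to the receptor with the highest ratio. Names in counts of 5 or fewer are given too, and *Il18r1*, below 50 CPM, is named for its ratio. The receptors and lists were chosen with earlier results of these data known. The comparison within 1 UMI class of cells with and without another gene was chosen after the data were seen. Alternatives were median-ratio scaling, means of per-cell fractions, UMIs per cell, other cell filters, thinning, and weighting of UMI classes. Python 3.11.15, numpy 2.4.6, scipy 1.17.1, pandas 2.3.3 and matplotlib 3.10.9 were used, with GENCODE M21 gene models.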

Additional observations from a re-analysis of the deposited data

How the results depend on the processing

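No paired analysis was possible because the labels give no replicate numbers and each group had 1 library. With stimulation, the count of 7 receptors lower by 2-fold (23.0% of all genes) was 4 as means of per-cell fractions (18.5%), 3 in cells thinned to 1400 UMIs (15.1%) and 2 as UMIs per cell (6.40%), where *Il6st* (0.053) and *Il27ra* (0.079) changed direction. In the first 2 settings each cell has equal weight. In the last, no cell is scaled for depth. The count of 2 receptors higher by 2-fold was 2 in every setting tried. *Il12rb2* had no ratio in cells of at least 5000 UMIs, where the unstimulated cells held 0 UMIs, and was set to a floor of 3 UMIs for the count.

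For IFT20-KO over stimulated WT, the count of 3 receptors higher by 1.2-fold (35.9% of all genes) was 1 with median-ratio scaling (23.1%). It was 0 as UMIs per cell (5.39%), in cells of at least 5000 UMIs (18.4%) and with weighted UMI classes (16.1%; added after the data were seen). It was 5 in thinned cells (38.9%) and without the 6% of cells with the most UMIs (38.8%), and 6 among cells of over 1000 genes with a mitochondrial share below 10% (39.9%). The cause was not tested. The count of 2 lower by 1.2-fold (7.75%) was 7 as UMIs per cell (73.6%) and 4 both in cells of at least 5000 UMIs (10.2%) and with weighted classes (11.2%), and the 1 lower by 2-fold (1.67%) became 2 as UMIs per cell (5.35%). In each of these settings the share of all genes moved in the direction of the count. Of 100 single ratios recomputed for this comparison 22 changed direction, and of 89 for stimulation 3 did. *Il12rb1* and *Il12rb2* were lower in IFT20-KO under every setting, from −1.11 to −0.39 and from −2.05 to −1.34. Depth limits *Il12rb2* most, with 9, 188 and 64 UMIs.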
